A study of Homo sapiens with 4 samples.

Results

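The 10 genes described here encode members of the BCL2 family, the proteins that decide whether the outer mitochondrial membrane is opened during apoptosis. They comprise the effectors BAX, BAK1 and BOK, the protective members BCL2, BCL2L1 and MCL1, and the BH3-only members BID, BBC3, PMAIP1 and BCL2L11, and all 10 matched a symbol among 20033 protein-coding genes of the RefSeq annotation of GRCh38.p14. The list was drawn up because BAX carried one of the strongest peaks found at a gene end in both peak lists of the study. The height of the BAX peak is therefore what chose the list and is given as a description, without a test. For each gene, peaks whose centre lay in the gene or within 10 kb of it were taken, and otherwise the nearest peak.

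The study used ChIP-seq, the sequencing of immunoprecipitated chromatin, to map where upstream transcription factor 1 (USF1) binds in Huh7 cells, an established human liver cancer line. USF1 was overexpressed in these cells, per the series' design text, and chromatin was precipitated with an antibody to the FLAG tag. There were 2 USF1 immunoprecipitates (IP 1 and IP 2) and 2 inputs of the same cell line, and the authors deposited 1 peak list for each IP against the input of its number (list 1 and list 2). The promoter that drives USF1, and whether the input chromatin came from the same overexpressing cultures, were not given in the sources used here, and the labels do not say that the replicates were separate cultures. Peak lists hold no RNA values, so the cell line could not be checked against hepatocyte markers, and nothing here measures expression of the 10 genes. The libraries kept 43562726 to 47165647 tags after removal of duplicates. List 1 had 14300 peaks and list 2 had 27325, of which 37.3% and 19.6% overlapped a peak of the other list. The caller's false discovery rate (FDR) was at most 5% for 1.92% of the peaks of list 1 and for 30.8% of those of list 2. It was 100% for 64.3% of the peaks of list 1, whereas the highest in list 2 was 25.85%. An FDR is therefore read against its own list.

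BAX and BAK1 form the pores through which cytochrome c leaves mitochondria, and BOK is a related, less well understood effector. BCL2, BCL2L1 and MCL1 hold the effectors in check by binding them and the BH3-only proteins. The BH3-only proteins are the sensors: BBC3 (PUMA) and PMAIP1 (NOXA) are known to be induced by DNA damage, BCL2L11 (BIM) responds to loss of growth factors, and BID carries the signal of death receptors to mitochondria. USF1 is a bHLH-ZIP factor that binds the E-box, whose preferred form is CACGTG.

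The 250 bases before the RefSeq start site of BAX (chr19:48954625-48954874, plus strand, GRCh38.p14) are shown because both BAX peaks cover them. Every CACGTG is in capitals.

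BAX upstream: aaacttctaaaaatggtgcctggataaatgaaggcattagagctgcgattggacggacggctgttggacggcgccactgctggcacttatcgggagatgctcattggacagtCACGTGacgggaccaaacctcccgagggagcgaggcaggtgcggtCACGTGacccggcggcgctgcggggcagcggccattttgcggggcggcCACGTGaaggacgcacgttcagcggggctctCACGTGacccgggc

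This stretch held 4 E-boxes. Their first bases lay 138, 93, 45 and 14 bp before the start site, and 130 bp covered them from the first base to the last. They follow with 10 bases on each side, from the farthest to the nearest, with the E-boxes found in the promoter windows of BBC3 and BID for comparison.

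BAX E-box 1: attggacagtCACGTGacgggaccaa
BAX E-box 2: caggtgcggtCACGTGacccggcggc
BAX E-box 3: gcggggcggcCACGTGaaggacgcac
BAX E-box 4: gcggggctctCACGTGacccgggcgc
BBC3 E-box: ggggagatttCACGTGagatatagat
BID E-box: gtgtcctctcCACGTGgcctggggat

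Both E-box 1 and E-box 2 of BAX had GT before and AC after the CACGTG, which extends the palindrome. Of the 8 bases that flank the 4 E-boxes, 7 were the T before or the A after that make TCACGTG or CACGTGA. The E-box of BBC3 had both of these flanks and that of BID had neither.

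Promoter windows of RefSeq (250 bases before the start site and 50 from it) were present for 9 of the 10 genes, MCL1 being the exception. The motif CACGTG, which reads the same on both strands, occurred in 7.26% of all 35116 windows, and 5 windows held 4 or more. CACGTGA or its reverse complement, which contains CACGTG, occurred in 3.71% of windows, and CACGTG with GT before and AC after in 0.353%. The variant CACATG, searched on both strands, occurred in 11.1%. BAX was the member with several E-boxes. BBC3 had 1, whose first base lay 232 bp before the start site, and BID had 1, counted in 2 windows of its 5 that overlap each other. BAK1, BOK, BCL2, BCL2L1, PMAIP1 and BCL2L11 had no CACGTG in their windows, and CACATG was found in 1 window of BID and in none of the other members. By gene, 3 of 9 members (33.3%) had an E-box in at least 1 window. Of all 15841 protein-coding genes with a window, 10.9% did. Members had 1.56 windows per gene on average and all genes 1.4. The 3 include BAX, which was chosen for its peak, and no test was made.

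The BAX peak lay over the start site in both lists. In list 1 it spanned chr19:48954372-48955630 (1259 bp) with 272 IP tags (95% exact Poisson interval 241 to 306), and in list 2 chr19:48954090-48955814 (1725 bp) with 363 tags (327 to 402). Both values are raw tag counts of libraries of unlike depth, and the intervals cover counting error only. Per 1000000 tags kept, they were 5.77 and 8.26. The fold over the expected tags, as the authors gave it, was 33.56 for the list 1 peak and 32.5 for the list 2 peak, and the FDR was 0 for each. All folds, scores, FDRs and tag counts of single peaks here are the authors' deposited values. Within its list the peak ranked 5 of 14300 by fold and 98 by tags in list 1, and 28 of 27325 by fold and 153 by tags in list 2. Among the 1891 pairs of overlapping peaks centred within 1 kb of a protein-coding gene end, the lower of its 2 values ranked 5 by fold, 6 by tags per 100 bp and 26 by tags. BAX thus stood nearer the top by fold than by tags.

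The BAX summits fell among the E-boxes. The list 1 summit was 64 bp before the start site, between E-box 2 and E-box 3. The list 2 summit was 88 bp before it, on the last base of E-box 2. The 2 summits were 24 bp apart, against a median of 38 bp over all 5377 overlapping pairs, of which 75.2% were within 100 bp. The whole list 1 peak lay within the list 2 peak, of which it made up 73%. List 2 held 3 further peaks in the BAX window, with 53, 60 and 65 tags and folds of 4.68, 3.56 and 7.97, and none of them overlapped a peak of list 1. None of the 3 was nearest to BAX. The nearest protein-coding gene of the first was DHDH, and that of the other two was FTL, which encodes the ferritin light chain and whose boundary was 97.5 bp from the centre of the last.

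**Figure D1:**
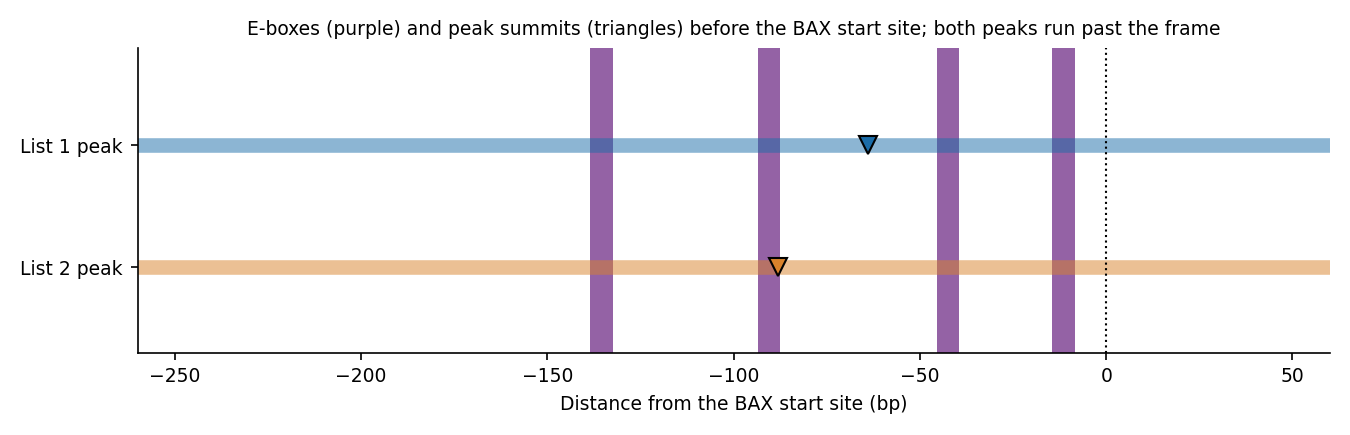
Position of the 4 E-boxes (purple bands) and of the list 1 and list 2 summits (triangles) as distance in bp from the BAX start site (dotted line), with the peaks as horizontal bars that run past the frame on both sides. The summits, 64 and 88 bp before the start, lie within the 130 bp that hold the E-boxes.

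The other effectors had no peak found in both lists. BAK1 had no list 1 peak within 10 kb, the nearest being 160837.5 bp away. In list 2 it had 1 peak of 69 tags and 4.41-fold, with an FDR of 19.77%. The centre of that peak was 9872.5 bp from the gene, just inside the 10 kb limit, and within the non-coding gene LINC00336. BOK had no peak within 10 kb in either list. Its nearest peak, 160555.5 bp away by its centre in list 1 and 160708.5 bp in list 2, lay inside D2HGDH and overlapped between the lists (7.28-fold and 9.21-fold). The promoter windows of BAK1 and BOK were under no peak.

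Among the protective members, BCL2 had a peak found in both lists. It lay inside the gene, at chr18:63161452-63162151 in list 1 and chr18:63161581-63162452 in list 2, and its summits were 157850 and 157733 bp downstream of the RefSeq start site. It had 43 tags and 6.22-fold in list 1 and 38 tags and 6.28-fold in list 2. The FDR was 87.55% in list 1 and 22.67% in list 2, and both tag counts were below the median of their list (44 and 49). BCL2 is 196745 bp long, the only one of the 10 genes over 100 kb. Of all protein-coding genes of 100 kb or longer, 30.3% had such a pair of peaks.

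MCL1, a protective protein with a short half-life, had a peak in list 2 and none in list 1. The list 2 peak spanned chr1:150578260-150580827, across the gene's upper end coordinate (150579610), and had 206 tags, 6.05-fold and an FDR of 0.17%. It ranked 703 of 27325 by tags and 10399 by fold. The nearest peak of list 1 was 58689 bp away. The tables used here give no strand for MCL1, so the covered end is not called its start.

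BCL2L1, which encodes BCL-XL, had no peak within 10 kb in either list. In list 2 the nearest centre was 14376 bp from the gene, just outside the limit, in a peak of 265 tags but 3.2-fold, and in list 1 it was 69045 bp away. Both promoter windows of BCL2L1 were under no peak.

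Of the BH3-only members, BBC3 and BCL2L11 had overlapping peaks of both lists, and BID and PMAIP1 had no peak within 10 kb. The BBC3 peak of list 1 (chr19:47230151-47231832) had 101 tags and 3.94-fold with an FDR of 100%. It overlapped 2 peaks of list 2, which had 89 and 70 tags, folds of 4.59 and 4.73, and FDRs of 3.34% and 3.66%. The summits lay 2090 bp downstream of the start site in list 1 and 1906 and 1121 bp in list 2, so that no peak covered the start. The E-box of BBC3 was outside these peaks, 2319.5 bp from the list 1 summit and 1350.5 bp from the nearest list 2 summit. The strongest list 2 peak of the gene, at chr19:47225428-47228590, had 226 tags, 7.58-fold and an FDR of 0.25%, and overlapped no peak of list 1. Another 2 list 2 peaks in the window had 44 and 96 tags.

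BCL2L11 had the widest peak of the 10 genes, in list 2. That peak spanned chr2:111118666-111124326 (5661 bp), covered the start site and had 391 tags, 5.36-fold and an FDR of 0.3%. The list 1 peak spanned chr2:111121328-111123117 (1790 bp), began downstream of the start site, and had 131 tags, 3.88-fold and an FDR of 81.41%. It made up 31.6% of the list 2 peak. Their summits were 1819 bp apart, 1634 bp downstream of the start site in list 1 and 185 bp before it in list 2. Over all overlapping pairs, the width of the list 2 peak was a median of 1.12 times that of the list 1 peak, and the ratio here was 3.16. By tags the list 2 peak of BCL2L11 ranked 127 of 27325, above that of BAX, and by fold it ranked 14965. The 250 bases before its start site (chr2:111120664-111120913, plus strand, GRCh38.p14) are shown as a stretch that lay under a list 2 peak and held no CACGTG.

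BCL2L11 upstream: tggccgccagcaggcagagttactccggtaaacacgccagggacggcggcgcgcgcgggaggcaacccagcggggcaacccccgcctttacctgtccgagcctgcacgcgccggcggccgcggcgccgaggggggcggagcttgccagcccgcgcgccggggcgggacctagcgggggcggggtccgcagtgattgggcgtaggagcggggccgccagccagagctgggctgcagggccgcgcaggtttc

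In 3 other list 2 peaks of the BCL2L11 window, tags were 102, 132 and 146 and folds 2.52 to 3.86, and none overlapped a peak of list 1. That of 132 tags had its centre inside ACOXL, the neighbouring gene.

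BID and PMAIP1 were the BH3-only members with no peak nearby. The nearest centres to BID were 95585 bp away in list 1, inside BCL2L13, and 105473.5 bp away in list 2, inside ATP6V1E1. Those to PMAIP1 were 302902 and 37828.5 bp away. The E-box of BID was under no peak, with the closest summits over 100 kb away in both lists.

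**Figure D2:**
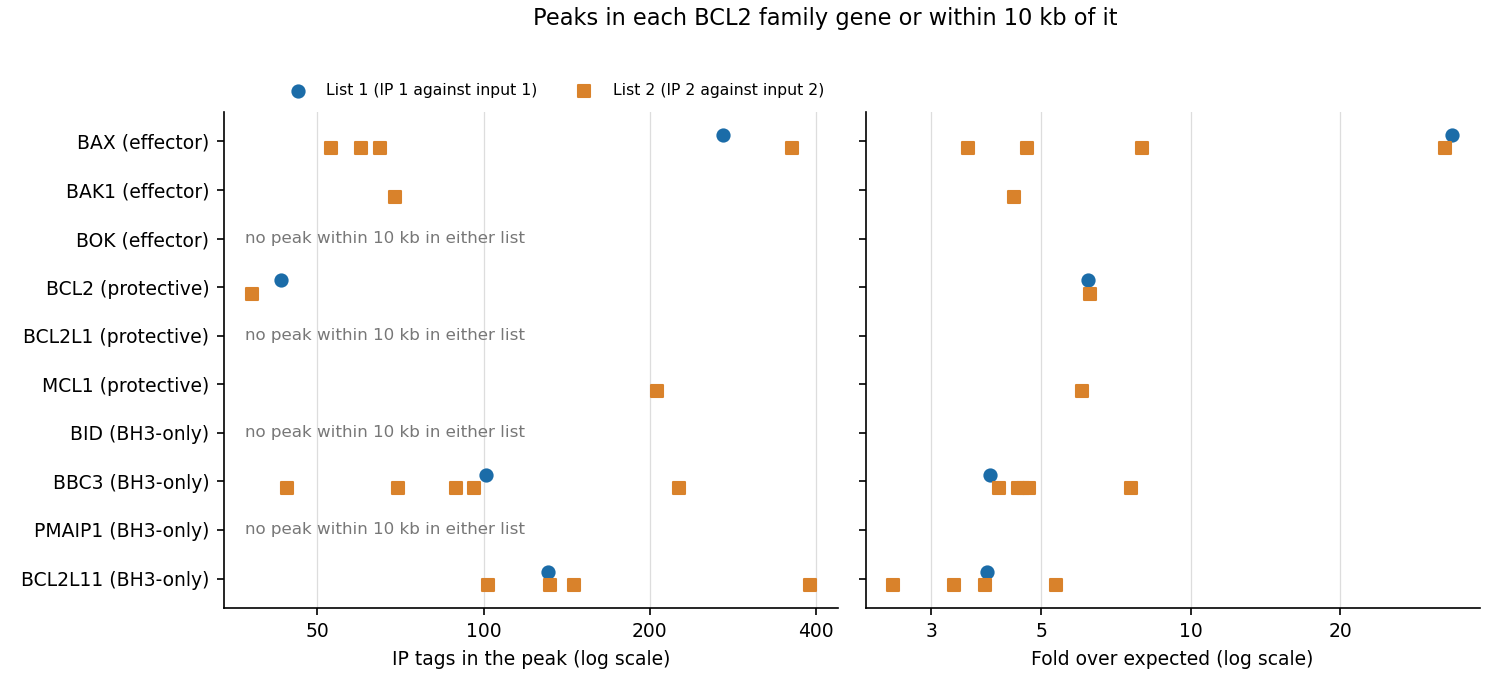
IP tags (left, log axis) and fold over the expected tags (right, log axis) of each peak in the 10 genes or within 10 kb, by gene and role; circles are list 1 and squares list 2, and 4 genes had no peak. By fold the 2 peaks at the BAX start site stand apart at 33.56 and 32.5, while by tags the list 2 peak of BCL2L11 is higher.

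Counted over the 10 genes, 4 (40%) had a peak in list 1, 6 (60%) in list 2 and 4 (40%) overlapping peaks of both lists. These shares are set against all 20033 protein-coding genes, of which 32.7% had a peak in list 1, 56.8% in list 2 and 21.6% overlapping peaks of both. Without BAX, which chose the list, 3 of 9 had peaks in list 1 (33.3%), 5 of 9 in list 2 (55.6%) and 3 of 9 in both (33.3%). The members' shares in each list were thus near those of all genes. By role, overlapping peaks of both lists were found in 1 of 3 effectors, 1 of 3 protective members and 2 of 4 BH3-only members. These numbers are too small to rank the roles, and no test was made.

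At stricter limits BAX alone was left. That BAX passed follows from its choice by peak height and is description only. When each of the overlapping peaks had to reach 8-fold, 1 of the 10 genes was left, against 4.36% of all genes. When each had to have an FDR of 5% or less, 1 of 10 was left, against 1.83%. Without BAX these counts were 0 of 9. Both lists had overlapping peaks centred within 1 kb of a gene end at 1 of the 10 genes, again BAX, against 11.3% of all genes. Without BAX it was 0 of 9. Among the genes with a RefSeq start site in the tables, peaks covered it in list 1 at 1 of 9 members (15.8% of all 15841 genes) and in list 2 at 2 of 9, BAX and BCL2L11 (31.4%). In both lists they covered it at 1 of 9 members, BAX (12.4% of all). Without BAX the start site was covered at 0 of 8 members in list 1, 1 of 8 in list 2 and 0 of 8 in both.

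**Figure D3:**
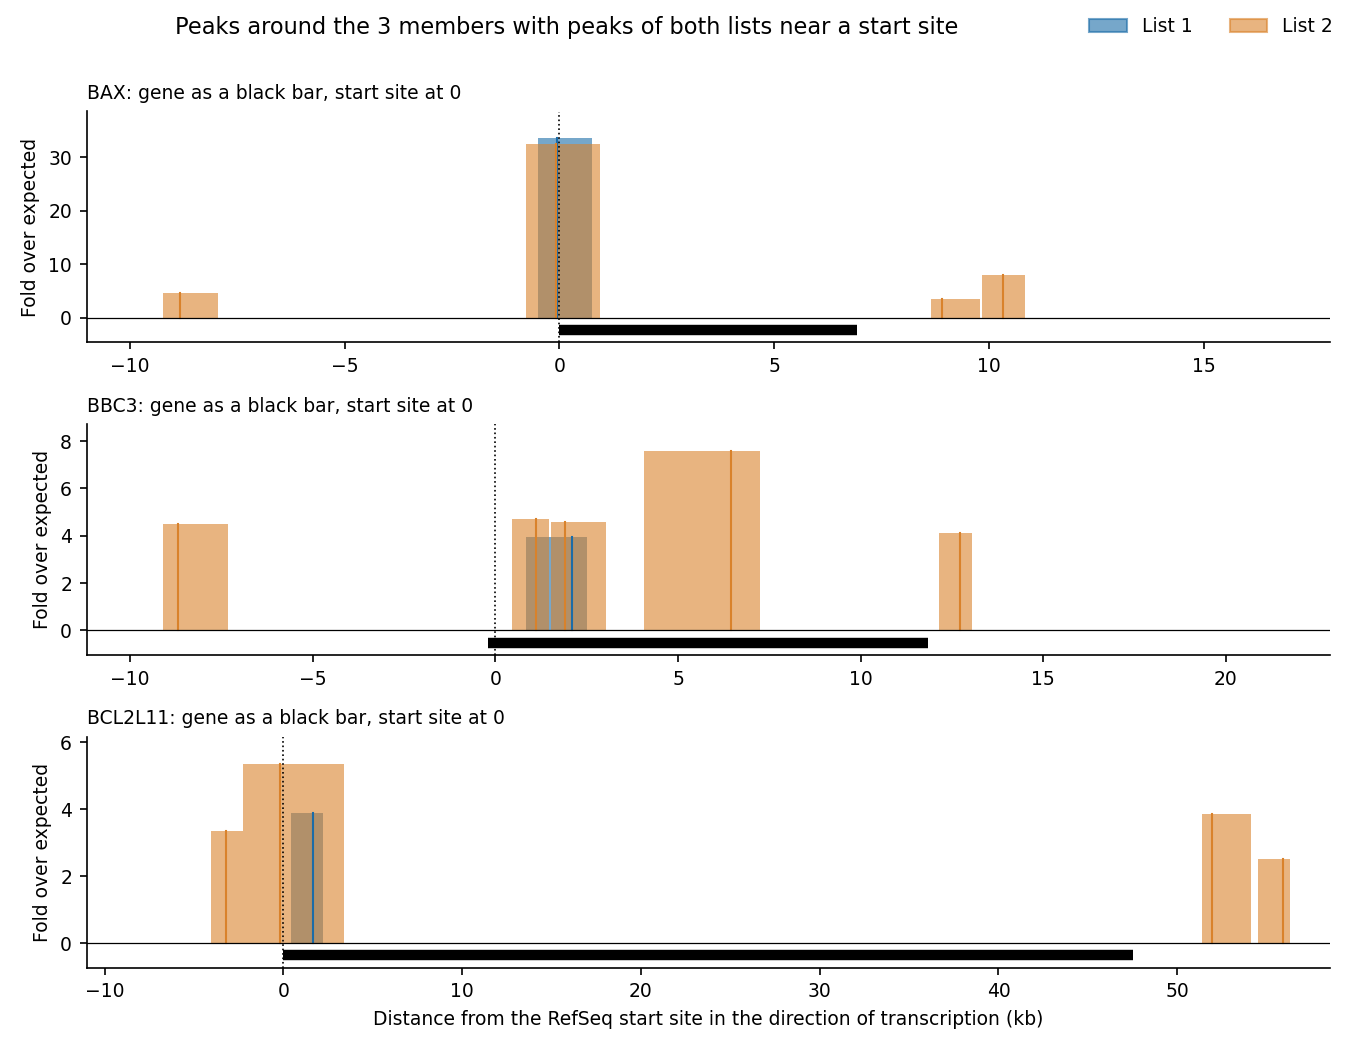
Fold over the expected tags (bar height, a linear axis from 0) and extent (bar width) of the list 1 and list 2 peaks around BAX, BBC3 and BCL2L11, by distance in kb from the start site; thin lines mark summits and black bars the genes. The BAX peaks of both lists coincide at the start, whereas the list 1 peaks of BBC3 and BCL2L11 lie downstream of it at 3.94-fold and 3.88-fold.

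Tags per 100 bp of peak, a measure not independent of the height that chose BAX, set it apart from the other members. The BAX peaks held 21.6 tags per 100 bp in list 1 and 21 in list 2, against medians of 5.78 and 5.54 over all peaks of each list. In the peaks found in both lists, the values were 6.14 and 4.36 for BCL2, and 7.32 and 6.91 for BCL2L11. BBC3 had 6 in list 1 and 5.89 and 6.89 in list 2. All 15 other peaks in the members' windows in list 2 had 4.17 to 8.02 tags per 100 bp and folds of 2.52 to 7.97, and the 3 others in list 1 had 6 to 7.32 and folds of 3.88 to 6.22. BAX lay above the ranges of both measures, which follows from its choice by peak height and is description only. Among all peaks it ranked 11 of 14300 by tags per 100 bp in list 1 and 20 of 27325 in list 2. The high tag counts of BCL2L11 and MCL1 in list 2 came with widths of 5661 and 2568 bp, against a median of 873 bp. FDRs of the 3 other list 1 peaks were 81.41% to 100%.

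**Figure D4:**
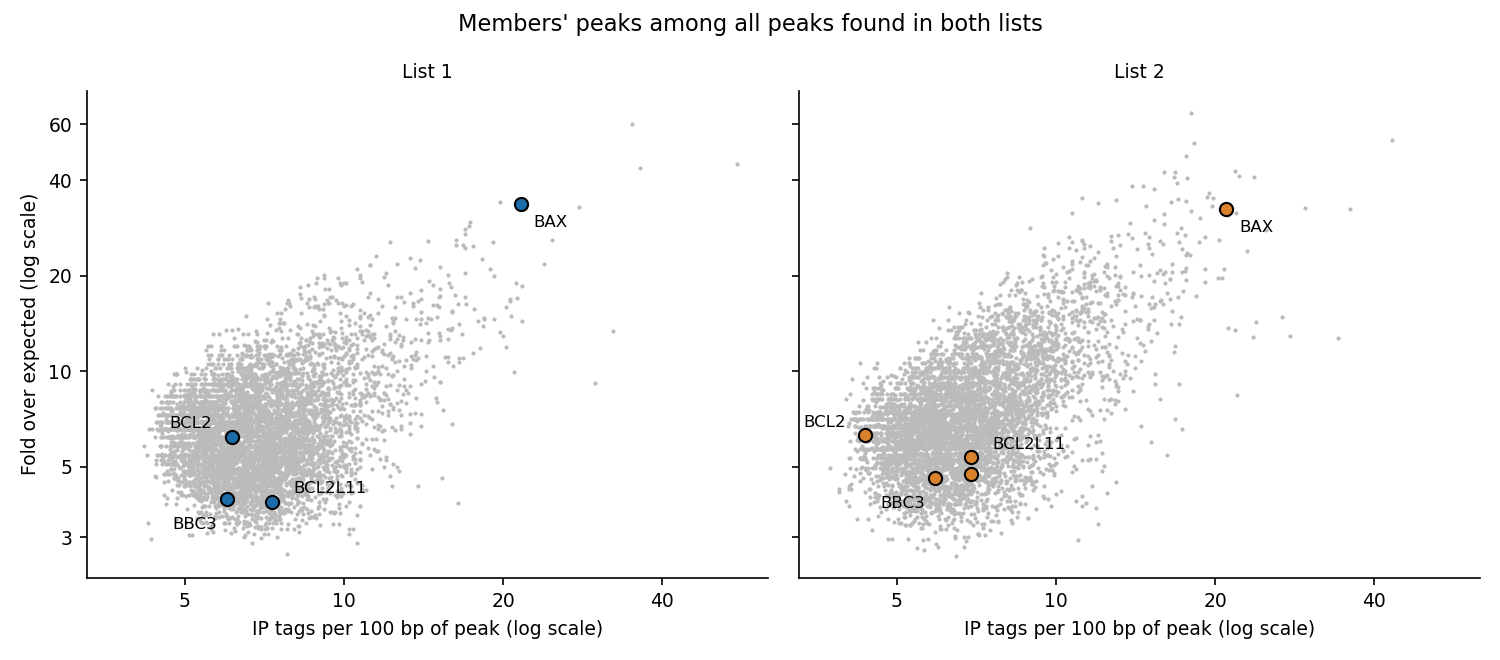
Fold over the expected tags against tags per 100 bp of peak (both log axes) for every peak found in both lists (grey) and for those of BAX, BCL2, BBC3 and BCL2L11 (coloured), in list 1 (left) and list 2 (right, where BBC3 has 2 peaks). BAX, at 21.6 and 21 tags per 100 bp, lies at the upper end of the cloud, and the other members lie in its dense part.

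Promoter windows were then grouped by their number of E-boxes, to place BAX among all genes. Of the 34943 distinct windows, those with no CACGTG were under overlapping peaks of both lists in 6.68% of cases (2166 of 32417, 95% Wilson interval 6.41 to 6.96%). The share was 29.4% with 1 E-box (674 of 2295, 27.5 to 31.3%), 56.6% with 2 (112 of 198, 49.6 to 63.3%) and 60.7% with 3 (17 of 28, 42.4 to 76.4%). With 4 or more it was 4 of 5, and the 4 include BAX, whose cover was given because its peak chose the list. The median fold of the covering peaks was 5.11 in list 1 and 5.93 in list 2 with no E-box, 7.28 and 9.76 with 1, and 12.08 and 17.88 with 2. It was 14.69 and 24.45 with 3. BAX had 4 E-boxes and 33.56-fold and 32.5-fold. Windows of 1 gene can overlap, so that the intervals cover counting error only and are too narrow.

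The 5 windows with 4 or more E-boxes belonged to AMDHD2, BAX, LAMP1, RAD9A and SLC25A31. LAMP1, a lysosomal membrane glycoprotein, had 6 E-boxes and a peak of 418 tags in list 1 and 462 in list 2. RAD9A, a subunit of the DNA damage clamp, had 4 and peaks of 241 and 376 tags, and AMDHD2 had 4 and peaks of 282 and 461. SLC25A31, a carrier of ADP and ATP, had 4 E-boxes and no peak over its window in either list. BAX, with 272 and 363 tags, lay within the range of the 3 other covered windows in list 1 and below it in list 2.

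The number of E-boxes moved together with base composition. The median window held 12 CpG with no E-box, 22 with 1, 27 with 2 and 26.5 with 3, and each CACGTG contains a CpG itself. BAX had 38 CpG and a GC content of 67.3%. Among windows with 30 or more CpG, a limit chosen after the values were seen, 13.9% were covered in both lists with no E-box (975 of 7005), 44.9% with 1 (324 of 722) and 70.9% with 2 (56 of 79). With 3 E-boxes it was 6 of 10, and with 4 or more 4 of 4, again including BAX, which was chosen for its peak. Within the family, the windows of PMAIP1 (42 CpG) and BCL2 (31 CpG) also had 30 or more CpG, held no CACGTG and were under no peak. The same was true of the BID windows with 37 and 33 CpG. The window of BCL2L11 (39 CpG) held no CACGTG and was under the list 2 peak. BBC3, with 1 E-box, had 5 CpG and no peak over its window. The 2 windows of BID that hold its E-box had 29 and 31 CpG and GC contents of 74.7% and 78%, and were under no peak of either list.

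**Figure D5:**
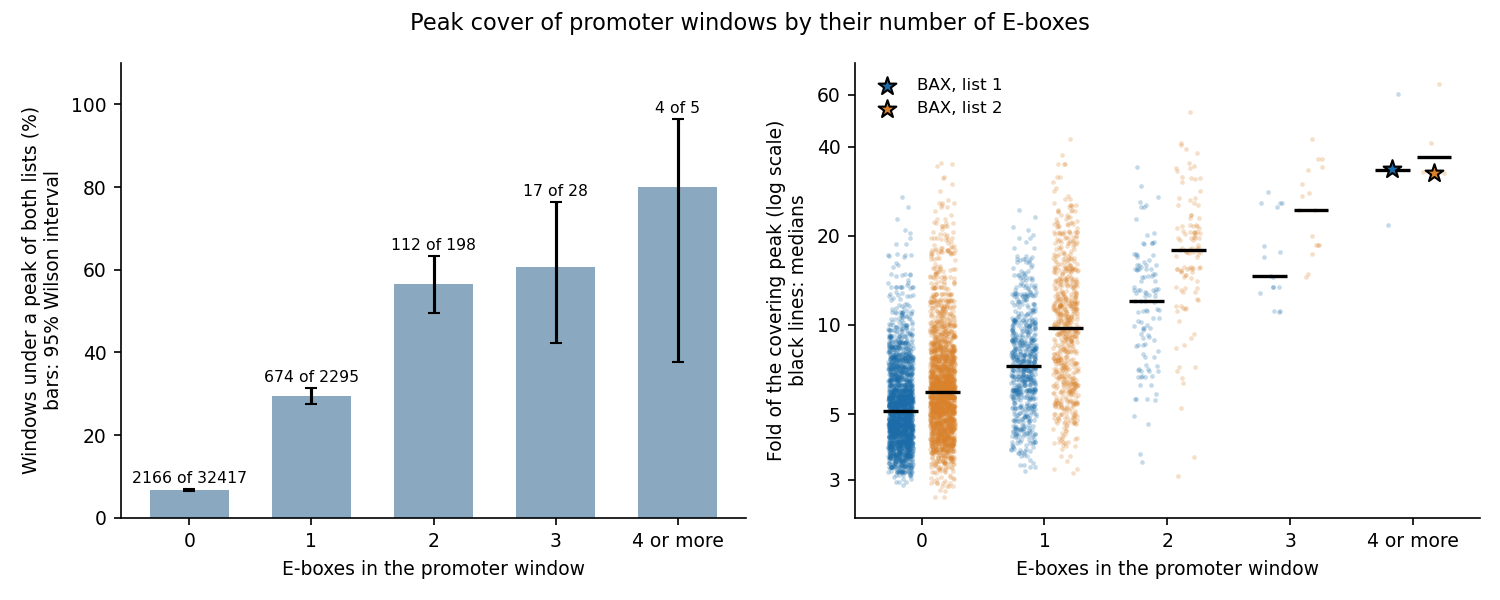
Left, percent of promoter windows under overlapping peaks of both lists by number of E-boxes (error bars, 95% Wilson interval); right, fold of the covering peaks in list 1 (blue) and list 2 (orange) on a log axis, with medians as black lines and BAX as stars. The share rises from 6.68% with no E-box to 56.6% with 2, and the BAX stars, at 33.56 and 32.5, are among the 4 covered windows with 4 or more.

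Shared gene-end peaks most like that of BAX were sought over 4 values, the log2 tags and log2 folds of both lists. The nearest by Euclidean distance was at MCOLN1 (0.53), with 253 and 323 tags and folds of 25.96 and 40.65. RAD9A followed at 0.733, with folds of 21.8 and 41.18, then CLCN7 at 0.755, with 34.25 and 52.26. HEXA was at 0.793, with 213 and 243 tags, and HOXC13 at 0.905, with 295 and 447 tags. In all 5 the list 2 fold was above the list 1 fold (HEXA 25.59 and 35.43, HOXC13 19.24 and 27.05). In BAX the folds were close, with list 1 slightly higher (33.56 and 32.5). The list 1 fold was also the higher in LAMP1, with 60.28 in list 1 and 32.83 in list 2. So it was in the pair shared by GALNS and TRAPPC2L, at a distance of 0.958 (25.05 and 19.63).

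Apart from these 10 genes, 58 others of the apoptosis machinery were listed. Of these, 21 (36.2%) had overlapping peaks of both lists in the gene or within 10 kb, where 21.6% of all genes did, and 13 (22.4%) had them within 1 kb of a gene end, where 11.3% did. When both peaks had to reach 8-fold, the count was 2 of 58 (3.45%, against 4.36%), BCL2L2 and USP9X. The BCL2L2 pair lay 9451.5 bp outside that gene, over a promoter window of PABPN1. The lists were written with earlier results of these data known, and no test was made.

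The partners of the family at the outer membrane or in its turnover had overlapping peaks of both lists in 6 of 10 genes (60%), where 21.6% of all genes did. USP9X, a deubiquitinase that stabilises MCL1, had the highest folds of these, 12.36 and 17.14, with 227 and 258 tags, an FDR of 0 in both lists and a centre 662.5 bp outside the gene. MTCH2, the mitochondrial receptor of BID, had 273 and 269 tags at 5-fold and 8.73-fold over its start site. DNM1L, the fission GTPase, had 83 and 74 tags. The VDAC2 peak had 271 and 328 tags but was 3792 bp outside the gene, over a promoter window of COMTD1. VDAC2 encodes an outer membrane channel that binds BAK.

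Of 17 genes of the apoptosome, caspases and their inhibitors, 4 had peaks of both lists (23.5%), near the 21.6% of all genes. Among the 13 with a RefSeq start site here, both lists covered the same one at 4 (30.8%), against 12.4% of all genes. All 4 covered a RefSeq start site: BIRC3, an inhibitor of apoptosis (218 and 238 tags), CYCS, cytochrome c (121 and 106), CASP9, the initiator caspase (105 and 111), and DIABLO, which relieves caspase inhibition (115 and 100). The folds of these start-site peaks were 4.25 to 6.08 in list 1 and 4.86 to 6.8 in list 2, and their list 1 FDRs 15.48% to 100%. CASP9 had a second pair of overlapping peaks, centred 1904.5 bp outside the gene, with 105 and 114 tags at 6.56-fold and 11.66-fold. That pair lay over a promoter window of DNAJC16.

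Of 13 further BCL2 family genes, 4 had peaks of both lists (30.8%, against 21.6% of all genes). BNIP3L, a mitophagy receptor, had 159 and 199 tags at 5.71-fold and 12.86-fold. BCL2L12 had 131 and 187 tags with the centre 3159.5 bp outside the gene. BCL2L2 (BCL-W) had 86 and 98 tags 9451.5 bp outside, over a promoter window of PABPN1. BCL2L13 had 44 and 68 tags 4.5 bp outside the gene, over none of its promoter windows. The centre of that list 2 peak lay inside ATP6V1E1. The death receptor arm had 3 of 10 (30%, against the same 21.6%). These were TRADD (81 and 118 tags, 3156 bp outside), FADD (58 and 87) and CFLAR (50 and 42), which encodes an inhibitor of caspase-8. Of the 43 genes of these lists with a promoter window, 7 (16.3%) had an E-box in at least 1 window, as did 10.9% of all 15841 protein-coding genes with a window. The former had 1.93 windows per gene on average and the latter 1.4, and no test was made. The windows of DIABLO and MTCH2 were under peaks of both lists, that of DFFA under list 1 alone, and those of BNIP3, HK2 and VDAC2 under list 2 alone. The window of TP73 was under none.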

How the data were processed

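Peaks were called with MACS 1.4.2, each IP against the input of its number and not pooled, at a p cutoff of 1e-05 with at most 1 tag per position, per the file headers. Bowtie2, deepTools, HOMER and GRCh38 are named per the submitters' processing notes, without a role. The authors deposited for each peak a raw count of IP tags. The deposited fold is the caller's ratio of observed to expected tags at the summit, the expected number coming from the scaled input. The deposited score is the p of the caller as minus 10 log10(p), and the deposited FDR is a percent from peaks called with IP and input exchanged. A count of tags is not scaled to depth, and wide peaks collect more tags.

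Gene positions, start sites and promoter sequences came from RefSeq tables of GRCh38.p14. Promoter windows were found for 9 of the 10 members and 43 of the 58 other genes. Peaks were shared when they overlapped by at least 1 bp with both centres in the gene or within 10 kb. Summit positions are the peak start plus the deposited offset, which was taken to count the first base as 1. Analyses used Python 3.11.15, numpy 2.4.6, pandas 2.3.3, scipy 1.17.1 and matplotlib 3.10.9, and peak assignment was tested on simulated data. With 2 lists, both values are given and no test was made. The members and gene lists were chosen with earlier results of these data known. Genes named were all members, up to 4 of each other list by the lower tag count, the 5 nearest to BAX, and the genes nearest to members' peaks. Genes named for E-boxes in their windows, or for windows under peaks of the other lists, were chosen after their values were seen. So were GALNS and TRAPPC2L. One of the other gene lists is not reported here by gene. Alternatives were summits, windows of 1, 5 and 50 kb, stricter thresholds, overlap of at least 50% of the shorter peak, nearest genes and each list alone.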

Additional observations from a re-analysis of the deposited data

How the results depend on the processing

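The 4 members with overlapping peaks of both lists (BAX, BCL2, BBC3 and BCL2L11) were the same genes with peak summits, with windows of 1, 5 or 50 kb, with an overlap of at least 50% of the shorter peak required, and with a peak given only to the gene nearest to it. In the 50 kb window the other apoptosis genes rose to 36 and all protein-coding genes to 37.3%. With a fold of at least 8 in each list, 1 member was left (BAX, which was chosen for its peak). There were 0 protective and 0 BH3-only members, 2 other apoptosis genes and 4.36% of all genes. With an FDR of at most 5% the counts were 1, 0, 0 and 2, and 1.83% of all genes. With a score of at least 100 (a p of at most 1e-10) they were 1, 0, 0 and 7, and 8.38%. Taking 1 list without the other gave 4 to 6 members, 1 to 2 effectors, 1 to 2 protective members, 2 BH3-only members in either, 29 to 42 other apoptosis genes and 32.7 to 56.8% of all genes; BAK1 and MCL1 were the members added by list 2. No paired analysis was possible because the counts come from no test and same-numbered IP and input are compared within a list. Variation between cultures cannot be read from 2 lists.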

Other observations

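Beyond 10 kb of the members, some nearest peaks had high tag counts. The list 1 peak nearest to BCL2L1 outside that limit, 69045 bp away and 9882 bp from ID1, had 556 tags, rank 5 of 14300, but a fold of 6.06 (rank 6422) over a width of 4675 bp. The nearest list 1 peak beyond 10 kb of BBC3 lay inside CCDC9 at a distance of 24075.5 bp, with 274 tags, 7.52-fold and an FDR of 0.93%, and overlapped a peak of list 2. That of BAX lay 79454 bp away inside PPP1R15A, which encodes a regulatory subunit of a phosphatase acting in the stress response, with 103 tags and 6.71-fold. In list 2, peaks just outside the limit lay 11429 bp from BBC3 and 13001 bp from MCL1, the latter with 288 tags and 4.94-fold. In list 1 the closest to BCL2 outside it lay 16387 bp away, inside KDSR, with 28 tags.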
